A study of Drosophila melanogaster with 6 samples.

Results

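The genes described here run the cell division cycle and copy the DNA: a list of 38 fly genes for origin licensing, the replication fork, the control of S phase, entry into mitosis and the separation of chromosomes. They were found by symbol, and a gene was measured where a probe set was paired with its symbol alone. That held for 26 of the 38, among 11981 genes with a probe set of their own on the array. Of the other 12, E2f1 shares its probe set with another gene, and no value is given for Orc6, geminin, Mcm7, RnrS, dap, CycA, Cdk1, stg, polo, aurA or BubR1.

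RNA came from whole wing imaginal discs of Drosophila melanogaster larvae of the third instar. The larvae were kept at 25 °C, each sample pooled 30 discs, and 25 ng of total RNA was amplified per array. The study set 3 groups of 2 arrays beside each other. LID RNAi discs carry lidk06801, an allele of lid, and express a hairpin against lid under act5Cgal4, a driver with the promoter of a cytoplasmic actin gene that is active in most cells. GFP RNAi discs express a hairpin against GFP under the same driver in a w1118 background. Wild type discs are listed with no RNAi, although their background field names w1118 and act5Cgal4 like that of the GFP RNAi discs. Allele and hairpin come together in LID RNAi and cannot be told apart. Whether wild type discs carry the driver is not settled by these fields. Against wild type, LID RNAi discs differ by the expression of a hairpin as well as by lid, and these cannot be told apart there. The mean of both controls includes wild type and shares this limit in part. Whether replicates were dissected separately is not stated, so the p-values measure the spread between these arrays, which may be technical.

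In a dividing cell, the origin recognition complex and its partners load the MCM helicase in G1, and kinases of the cyclin-dependent family then start replication in S phase. The factor E2F with its partner Dp switches on many S phase genes, and proteins of the retinoblastoma family hold it back. At mitosis, B cyclins with Cdk1 drive entry, and the anaphase promoting complex ends it by destroying cyclins and securin. At this stage the wing disc is a growing epithelium of dividing cells. The protein encoded by lid, named Kdm5 in current tables, removes methyl groups from lysine 4 of histone H3, and its human relative KDM5A was first described as a binding partner of the retinoblastoma protein.

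The knockdown itself was visible on the arrays. Kdm5 read 8.36 and 8.04 in LID RNAi discs, against 10.32 and 10.45 in GFP RNAi discs and 10.42 and 10.33 in wild type discs, all values being log2 signals from RMA. Kdm5 fell, with a difference of -2.19 ± 0.13 (SE) from GFP RNAi (limma adjusted p = 0.0309) and of -2.17 ± 0.13 from wild type (adjusted p = 0.00877). Leaving out any 1 array ended the first call (-2.35 to -2.02, adjusted p = 0.0573 to 0.220), a replicate block (0.0820) did so too, and the second was lost without wild type replicate 1 or 2 (adjusted p = 0.0805 and 0.0709). LID RNAi replicate 2 was the highest array in the gap between the 3′ and 5′ ends of GAPDH. Its signal at the 3′ end of GAPDH exceeded that at the 5′ end by 1.20, against 0.884 in LID RNAi replicate 1, 0.966 to 1.06 in GFP RNAi and 0.920 to 0.958 in wild type. In the actin gene Act5C it was less far apart, at 0.641, against 0.383 in LID RNAi replicate 1. There GFP RNAi had 0.507 and 0.566, and wild type 0.403 and 0.429. Across probe sets, which are not independent, the replicates correlated at r = 0.990 for LID RNAi, 0.995 for GFP RNAi and 0.995 for wild type. The highest correlation with an array of another group was 0.993 for LID RNAi replicate 1 and 0.990 for LID RNAi replicate 2. The LID RNAi replicates were thus no closer to each other than replicate 1 was to an array of another group. All 6 measured wing disc markers (vg, nub, ap, en, ptc and rn) were above background in the discs. The summed signal of 11 haemocyte markers, in log2, was 14.55 and 14.301 in LID RNAi discs, against 13.48 and 13.86 in GFP RNAi discs and 13.82 and 13.07 in wild type discs, so that it was higher on both LID RNAi arrays. That of 3 tracheal markers was also higher, at 13.12 and 13.07 in LID RNAi discs, against 12.84 and 12.88 in GFP RNAi discs and 12.82 and 12.73 in wild type discs. That of the 6 wing disc markers was slightly lower, at 14.42 and 14.40 in LID RNAi discs, against 14.49 and 14.53 in GFP RNAi discs and 14.44 and 14.52 in wild type discs. Single markers did not all follow these sums: against wild type PPO1 differed by 2.71 and PPO2 by 2.63, but NimC1 by -0.09 and srp by 0.0001. Of the tracheal markers, serp differed from wild type by 0.41 and btl by -0.10. Fat body sums differed between replicates, at 13.81 and 12.40 in LID RNAi and 13.42 and 12.95 in GFP RNAi. So did salivary gland sums, at 11.94 and 13.00 in LID RNAi and 12.67 and 11.66 in GFP RNAi. The part of these marker shifts in the results below was not tested. In whole discs, fewer cells of a kind and less RNA per cell cannot be told apart.

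No cell cycle or replication gene passed the threshold in any comparison. With lid knocked down, 0 of 26 differed from GFP RNAi at an adjusted p under 0.05 (limma, Benjamini-Hochberg over 18769 probe sets), where 0.469% of all probe sets did, and 1 of 26, pim, had an unadjusted p under 0.05, as did 12.4% of all probe sets. Against wild type the count was 0 of 26, where 2.34% of all probe sets passed, and 0 members had an unadjusted p under 0.05, beside 16.9% of all probe sets. GFP RNAi against wild type also gave 0 of 26, beside 0.863% of all probe sets, with 0 at an unadjusted p under 0.05, beside 11.4%. Set against the mean of both controls, LID RNAi again gave 0 of 26, beside 1.43% of all probe sets, with 1 member, pim, at an unadjusted p under 0.05, beside 16%. At the shares past the threshold, a count of 0 among 26 genes is not a result that sets these genes apart.

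The arrays give an interval for each difference. For the 25 genes above background, all but sub, the 95% interval of the difference lay within 1 log2 unit, a 2-fold change, against GFP RNAi and against wild type. Among all probe sets 85.7% had such an interval against GFP RNAi and 83.5% against wild type. Intervals of 24 of the 25 also lay within a 1.5-fold change in either comparison, the exception being Mcm3, with an upper end of 0.65 in both. Of all 18769 probe sets, 12385 had such an interval against GFP RNAi and 11779 against wild type. The median absolute difference over the 25 was 0.08 against GFP RNAi and 0.11 against wild type, beside 0.12 and 0.14 over all probe sets. Levels of single genes were steady: apart from sub, the range over the 6 arrays lay between 0.10 (Orc2) and 0.55 (Mcm3), with a median of 0.24, against 0.40 over all probe sets.

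**Figure D1:**
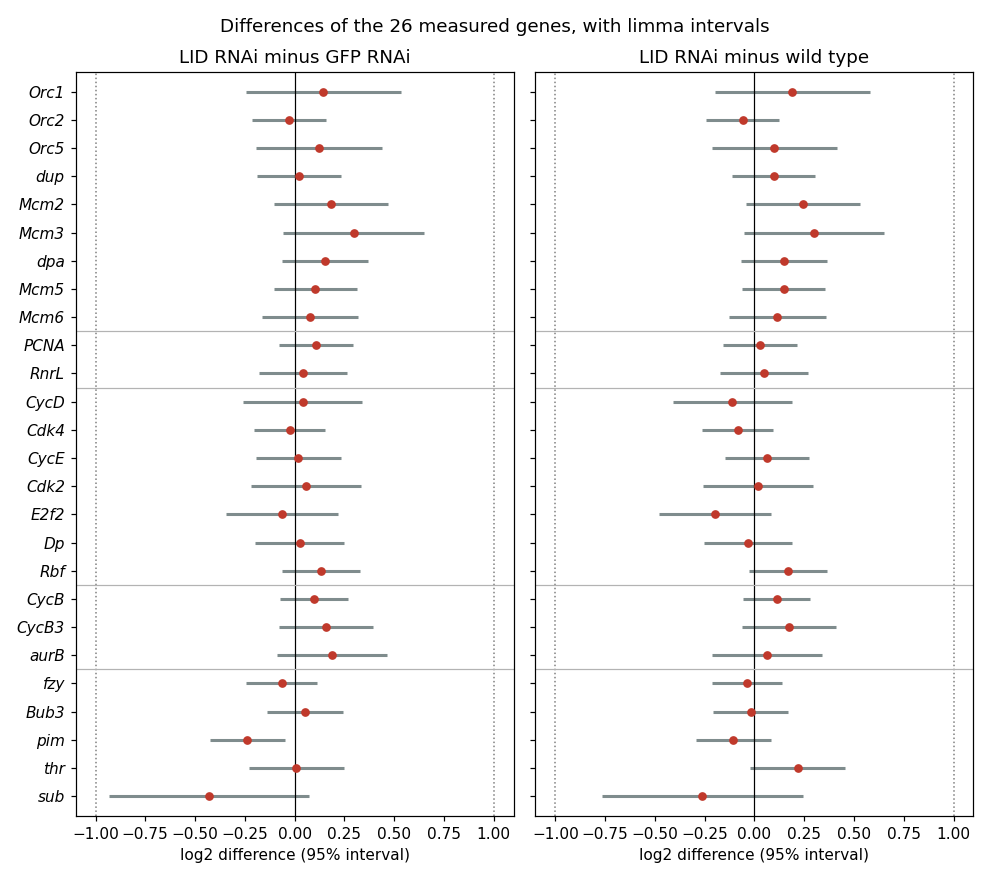
Difference in log2 signal, LID RNAi minus GFP RNAi on the left and LID RNAi minus wild type on the right, for the 26 measured genes (points) with 95% intervals from limma (bars), n = 2 arrays per group. Dotted lines mark a 2-fold change and grey lines separate the role groups. Every bar lies between the dotted lines, and the bar of sub is the widest in both panels.

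Origin licensing was the role group with the largest median difference from wild type, and the arrays of LID RNAi differed from each other in it. Against GFP RNAi the largest median was that of the 3 genes of G2 and mitotic entry, at 0.16, with 0.11 against wild type. The 9 measured licensing genes had a median difference of 0.12 against GFP RNAi and 0.15 against wild type, with 8 of 9 above 0 in both. Over all probe sets the medians were 0.01 and -0.01, with 52.1% and 48.0% above 0. Among them the 5 genes for subunits of the MCM helicase were all above 0, from 0.08 to 0.30 against GFP RNAi and from 0.12 to 0.30 against wild type. Their adjusted p-values lay between 0.490 and 0.796 against GFP RNAi and between 0.372 and 0.611 against wild type.

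Mcm3, for a subunit of the helicase that unwinds DNA ahead of the fork, read 11.19 and 11.50 in LID RNAi discs, against 11.02 and 11.07 in GFP RNAi discs and 11.14 and 10.95 in wild type discs. LID RNAi replicate 2 was the high array and replicate 1 lay close above wild type replicate 1. The difference of Mcm3 was 0.30 ± 0.14 (SE) against GFP RNAi and 0.30 ± 0.14 against wild type, and GFP RNAi differed from wild type by 0.00. Without LID RNAi replicate 2 it was 0.14 against GFP RNAi and 0.15 against wild type, and without replicate 1 it was 0.45 in both. Mcm2 read 11.46 and 11.71 in LID RNAi discs, against 11.35 and 11.46 in GFP RNAi discs and 11.37 and 11.32 in wild type discs. The difference of Mcm2 was 0.18 ± 0.11 against GFP RNAi and 0.24 ± 0.11 against wild type, and LID RNAi replicate 1 was level with GFP RNAi replicate 2. For dpa, the fly gene for Mcm4, values were 12.02 and 12.17 in LID RNAi discs, against 11.95 and 11.93 in GFP RNAi discs and 11.95 and 11.94 in wild type discs. The control arrays of dpa were nearly identical, and both LID RNAi arrays lay above them, by 0.15 ± 0.08 against GFP RNAi and 0.15 ± 0.08 against wild type.

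Signals of Mcm5 were 12.13 and 12.24 in LID RNAi discs, against 12.10 and 12.07 in GFP RNAi discs and 12.08 and 12.001 in wild type discs, again with both LID RNAi arrays on top. Mcm6 had 12.37 and 12.57 in LID RNAi discs, against 12.40 and 12.39 in GFP RNAi discs and 12.39 and 12.33 in wild type discs, and here LID RNAi replicate 1 fell among the controls. Both LID RNAi arrays exceeded all 4 control arrays for 4 of the 5, the exception being Mcm6, a pattern that 10.6% of all probe sets show.

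The size of the MCM difference rested on LID RNAi replicate 2. It was the highest of the 6 arrays for all 5 MCM genes and exceeded LID RNAi replicate 1 by 0.11 to 0.31. Without LID RNAi replicate 2 the median of the 5 was 0.06 against GFP RNAi and 0.09 against wild type, and without replicate 1 it was 0.23 in both. The part of RNA quality in this was not tested.

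The genes that load the helicase moved less evenly. Orc1, which encodes the large subunit of the origin recognition complex, read 9.02 and 9.38 in LID RNAi discs, against 8.95 and 9.15 in GFP RNAi discs and 9.03 and 8.98 in wild type discs. Replicates of Orc1 were 0.36 apart in LID RNAi, the widest gap of any measured gene of the list in that group, and overlapped both controls. Orc2, for another subunit, read 9.31 and 9.32 in LID RNAi discs, against 9.30 and 9.38 in GFP RNAi discs and 9.40 and 9.35 in wild type discs, and was the steadiest gene of all 26. Orc5 had 10.37 and 10.57 in LID RNAi discs, against 10.22 and 10.47 in GFP RNAi discs and 10.34 and 10.39 in wild type discs, with overlapping groups. The gene dup, which encodes the loading factor Cdt1, read 11.58 and 11.71 in LID RNAi discs, against 11.59 and 11.65 in GFP RNAi discs and 11.54 and 11.55 in wild type discs. Differences of these 4 genes ran from -0.03 (Orc2) to 0.14 (Orc1) against GFP RNAi and from -0.06 (Orc2) to 0.19 (Orc1) against wild type. LID RNAi replicate 2 was the highest array for 8 of the 9 licensing genes, all but Orc2, where it was the highest for 21.2% of all probe sets.

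**Figure D2:**
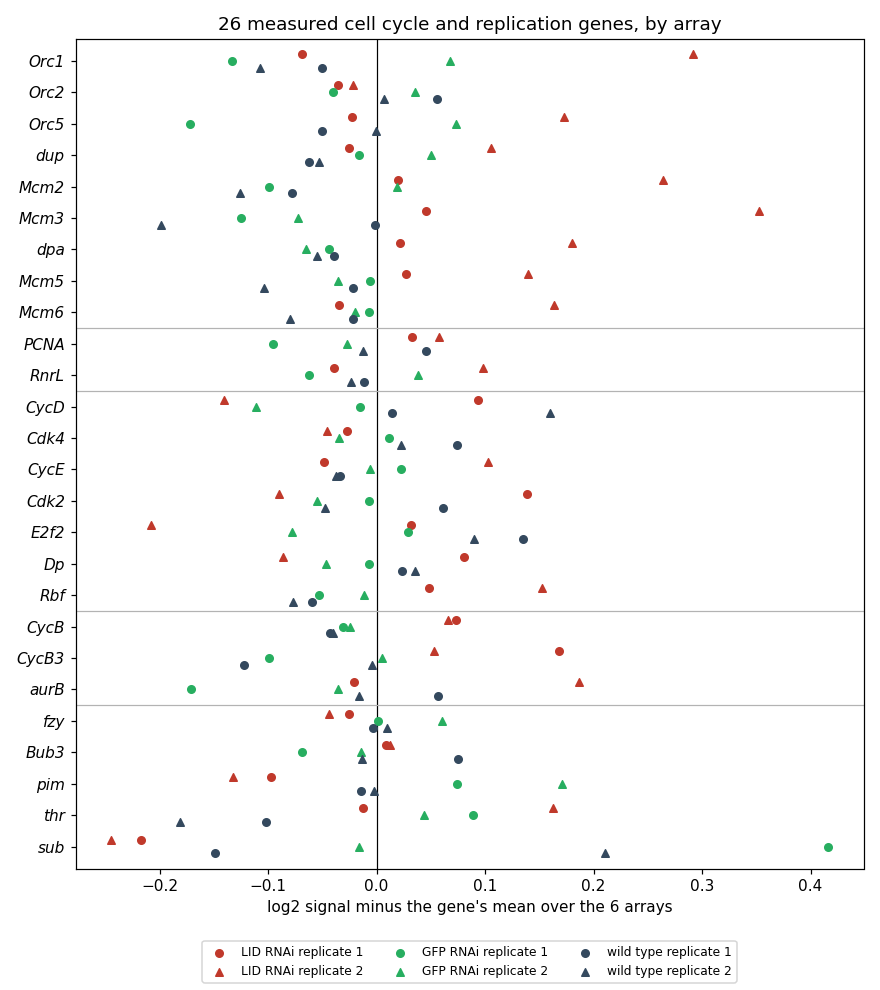
Log2 signal of each of the 26 genes on each array, minus the gene's mean over the 6 arrays, with LID RNAi in red, GFP RNAi in green and wild type in dark blue. Circles are replicate 1, triangles are replicate 2, and grey lines separate the role groups. LID RNAi replicate 2 lies farthest right for the 5 MCM genes, Orc1, Orc5 and dup, and the points of pim lie lowest in LID RNAi.

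At the fork, PCNA, the sliding clamp that holds the polymerase on DNA, read 13.05 and 13.08 in LID RNAi discs, against 12.93 and 12.99 in GFP RNAi discs and 13.07 and 13.01 in wild type discs. LID RNAi lay above GFP RNAi and overlapped wild type, with differences of 0.11 ± 0.07 (SE, adjusted p = 0.632) and 0.03 ± 0.07 (adjusted p = 0.887). Without wild type replicate 2 the difference from wild type was -0.000245. RnrL, the large subunit of the enzyme that makes deoxyribonucleotides, read 12.71 and 12.85 in LID RNAi discs, against 12.69 and 12.79 in GFP RNAi discs and 12.74 and 12.73 in wild type discs. Its groups overlapped, and its interval ran from -0.18 to 0.26 against GFP RNAi and from -0.17 to 0.27 against wild type.

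Control of the step from G1 to S was represented by 7 genes, with a median difference of 0.02 against GFP RNAi and -0.03 against wild type. The largest difference from GFP RNAi was that of Rbf, the fly retinoblastoma family protein that restrains E2F. Rbf read 10.56 and 10.67 in LID RNAi discs, against 10.46 and 10.50 in GFP RNAi discs and 10.46 and 10.44 in wild type discs, so that both LID RNAi arrays lay above all 4 controls. Its difference was 0.13 ± 0.07 (SE, adjusted p = 0.576) against GFP RNAi and 0.17 ± 0.07 (adjusted p = 0.362) against wild type. Without LID RNAi replicate 2 the difference from GFP RNAi was 0.08, and without replicate 1 it was 0.18.

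E2f2, the E2F of flies that acts as a repressor, read 11.44 and 11.20 in LID RNAi discs, against 11.44 and 11.33 in GFP RNAi discs and 11.55 and 11.50 in wild type discs. LID RNAi overlapped GFP RNAi and lay below wild type, by -0.20 ± 0.11 (SE, adjusted p = 0.447), and GFP RNAi stood below wild type as well, by -0.14. Dp, the partner that E2F proteins need to bind DNA, had 11.30 and 11.14 in LID RNAi discs, against 11.22 and 11.18 in GFP RNAi discs and 11.25 and 11.26 in wild type discs. Here the LID RNAi arrays spanned all 4 controls.

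CycD, the cyclin that couples growth signals to the cycle, read 11.10 and 10.86 in LID RNAi discs, against 10.99 and 10.89 in GFP RNAi discs and 11.02 and 11.16 in wild type discs. Its kinase Cdk4 had 12.16 and 12.14 in LID RNAi discs, against 12.20 and 12.15 in GFP RNAi discs and 12.26 and 12.21 in wild type discs. Both Cdk4 arrays of LID RNAi lay below wild type, by -0.08 ± 0.07 (adjusted p = 0.612). CycE, which triggers S phase, read 11.45 and 11.60 in LID RNAi discs, against 11.52 and 11.49 in GFP RNAi discs and 11.46 and 11.46 in wild type discs. Its kinase Cdk2 read 12.18 and 11.95 in LID RNAi discs, against 12.03 and 11.98 in GFP RNAi discs and 12.10 and 11.99 in wild type discs. In CycE and Cdk2 the LID RNAi arrays overlapped both controls, and in Cdk2, CycD, E2f2 and Dp the LID RNAi replicates were 0.17 to 0.24 apart with replicate 1 the higher, the opposite order to the licensing genes.

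**Figure D3:**
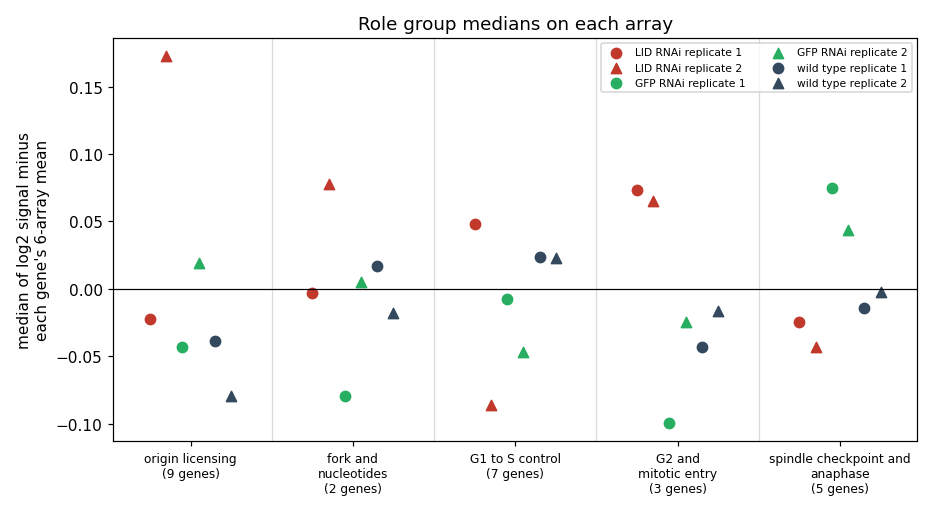
Median over each role group of the log2 signal minus each gene's 6-array mean, on each array (LID RNAi red, GFP RNAi green, wild type dark blue; circle replicate 1, triangle replicate 2). LID RNAi replicate 2 is the highest array for origin licensing, at 0.17 against -0.02 for LID RNAi replicate 1, and the lowest for G1 to S control, at -0.09 against 0.05. In the 3 genes of G2 and mitotic entry both LID RNAi arrays are on top, at 0.07 and 0.07.

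Of the genes for G2 and entry into mitosis, 3 of 8 were measured, and both LID RNAi arrays lay above both GFP RNAi arrays in all 3, as they did for 21.2% of all probe sets. CycB, the main mitotic cyclin, read 12.56 and 12.55 in LID RNAi discs, against 12.45 and 12.46 in GFP RNAi discs and 12.44 and 12.44 in wild type discs. Replicates of CycB differed by no more than 0.01 in any group, and LID RNAi stood above GFP RNAi by 0.10 ± 0.06 (SE, adjusted p = 0.630) and above wild type by 0.11 ± 0.06 (adjusted p = 0.478). The SE here comes from the moderated variance of limma, which draws on the spread of all probe sets, and is wider than that of the replicates alone. CycB3, a further B cyclin, read 11.45 and 11.34 in LID RNAi discs, against 11.18 and 11.29 in GFP RNAi discs and 11.16 and 11.28 in wild type discs. LID RNAi lay above both controls in CycB3, which overlapped each other, with differences of 0.16 ± 0.09 (adjusted p = 0.5799) and 0.17 ± 0.09 (adjusted p = 0.433).

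The kinase gene aurB, whose product corrects the attachment of chromosomes to the spindle, read 10.88 and 11.09 in LID RNAi discs, against 10.73 and 10.87 in GFP RNAi discs and 10.96 and 10.89 in wild type discs. LID RNAi lay above GFP RNAi by 0.19 ± 0.11 (SE, adjusted p = 0.578), close to the highest GFP RNAi array, and overlapped wild type, with a difference of 0.06 ± 0.11 (adjusted p = 0.821). Without LID RNAi replicate 2, aurB stood at 0.08 against GFP RNAi and -0.04 against wild type, and without replicate 1 at 0.29 and 0.17. Without GFP RNAi replicate 1 it stood at 0.12 against GFP RNAi, and without wild type replicate 1 or 2 at 0.10 and 0.03 against wild type.

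Among 5 genes of the spindle checkpoint and anaphase the median difference was -0.07 against GFP RNAi and -0.04 against wild type. The gene pim encodes securin, an inhibitor of the separation of sister chromatids that is destroyed at anaphase. It read 12.12 and 12.09 in LID RNAi discs, against 12.29 and 12.39 in GFP RNAi discs and 12.21 and 12.22 in wild type discs. LID RNAi was the lowest group, GFP RNAi the highest, and wild type lay between them with no overlap. The difference of pim was -0.24 ± 0.07 (SE, 95% interval -0.43 to -0.05) against GFP RNAi, with an adjusted p = 0.306, the lowest of the 26 genes in that comparison. Against wild type it was -0.11 ± 0.07 (adjusted p = 0.548), and GFP RNAi stood 0.13 above wild type (adjusted p = 0.605). Over the 11 alternatives tried the first difference lay between -0.29 and -0.19, with an adjusted p between 0.0768 and 0.701.

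The gene thr encodes a partner of pim in the separase complex and read 10.07 and 10.24 in LID RNAi discs, against 10.17 and 10.12 in GFP RNAi discs and 9.98 and 9.90 in wild type discs. Both RNAi groups lay above wild type, by 0.22 ± 0.09 (SE, adjusted p = 0.339) for LID RNAi and 0.21 ± 0.09 (adjusted p = 0.501) for GFP RNAi, and they overlapped each other. For fzy, the activator of the anaphase promoting complex that targets securin and cyclins, values were 11.66 and 11.64 in LID RNAi discs, against 11.69 and 11.74 in GFP RNAi discs and 11.68 and 11.69 in wild type discs. LID RNAi lay below both controls by 0.07 or less, and the 2 further probe sets of fzy read between 4.31 and 6.31 and overlapped between the groups. Bub3, a checkpoint protein at the kinetochore, read 12.50 and 12.51 in LID RNAi discs, against 12.42 and 12.48 in GFP RNAi discs and 12.57 and 12.48 in wild type discs.

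The gene sub encodes a kinesin known from the spindle of the meiotic oocyte. It read 4.36 and 4.33 in LID RNAi discs, against 4.99 and 4.56 in GFP RNAi discs and 4.42 and 4.78 in wild type discs. The mean of each group was within background, which reaches up to 4.82 on these arrays, the 95% point of 27 probe sets for Bacillus subtilis transcripts. Its difference of -0.43 from GFP RNAi, the widest of the 26, is therefore one between readings that are not told from background. The other 25 genes read between 8.95 and 13.08 on every array.

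Counting arrays without overlap, LID RNAi was above GFP RNAi in 10 of 26 genes and below it in 3, where 21.2% and 20.7% of all probe sets did so. It was above wild type in 9 and below it in 6, where the shares of all probe sets were 20.7% and 26.4%. All 4 controls lay below both LID RNAi arrays in 7 genes (Mcm2, Mcm3, dpa, Mcm5, Rbf, CycB and CycB3) and above them in 3 (fzy, pim and sub), beside 10.6% and 12.8% of all probe sets. The median over the 26 was 0.05 against GFP RNAi, with 20 above 0, and 0.06 against wild type, with 17 above 0. Among all probe sets 52.1% and 48.0% were above 0 in these comparisons. Without LID RNAi replicate 2 the medians were 0.05 and 0.01, and without replicate 1 they were 0.10 and 0.12. GFP RNAi against wild type, where neither group carries the lid hairpin, had a median of 0.01 over the 26 (-0.02 without GFP RNAi replicate 2), a median absolute difference of 0.04 and differences from -0.15 (CycD) to 0.21 (thr). The comparisons share arrays, so their values are given side by side and were not compared with each other.

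A wider set of 143 measured genes in 9 lists takes in the rest of the machinery. Against GFP RNAi, 0 of 143 passed in limma and 18 had an unadjusted p under 0.05, beside 0.469% and 12.4% of all probe sets. Against wild type 2 rose and 2 fell, a share that lies near the 2.34% of all probe sets. An unadjusted p under 0.05 was found there for 27, beside 16.9%. In GFP RNAi against wild type 1 rose, beside 0.863% of all probe sets, and 11 had an unadjusted p under 0.05, beside 11.4%. Against the mean of both controls 2 rose, beside 1.43%, and 21 had an unadjusted p under 0.05, beside 16%. Medians over the 143 were 0.02, 0.04, 0.01 and 0.04 in the order of these comparisons.

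The largest of these changes was found in both RNAi groups. Kmn1, which encodes a subunit of the Mis12 complex of the kinetochore, read 12.71 and 12.66 in LID RNAi discs, against 12.72 and 12.77 in GFP RNAi discs and 11.54 and 11.53 in wild type discs. Both RNAi groups stood about level, and wild type was the group apart. Kmn1 rose by 1.15 ± 0.07 (SE, adjusted p = 0.00846) in LID RNAi and by 1.21 ± 0.07 (adjusted p = 0.0111) in GFP RNAi against wild type, and its difference between the RNAi groups was -0.06 (adjusted p = 0.787). Its call against the mean of both controls, at 0.54 (adjusted p = 0.0376), comes with LID RNAi arrays that lie just below both GFP RNAi arrays and far above wild type. The call in LID RNAi against wild type ended without wild type replicate 1 or 2 (adjusted p = 0.0802 and 0.0745). That in GFP RNAi ended without GFP RNAi replicate 1 or 2 (0.110 and 0.154), without wild type replicate 1 or 2 (0.109 and 0.0977) and with a replicate block (0.0504), and the call against both controls without any 1 array (0.0790 to 0.155) and with a block (0.0829).

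Nuf2, a subunit of the Ndc80 complex that grips microtubules, read 11.96 and 11.98 in LID RNAi discs, against 11.55 and 11.56 in GFP RNAi discs and 11.43 and 11.34 in wild type discs. LID RNAi was the high group with no overlap. Nuf2 rose by 0.59 ± 0.07 (SE, adjusted p = 0.0346) against wild type and by 0.50 ± 0.06 (adjusted p = 0.0442) against the mean of both controls, and its difference from GFP RNAi was 0.42 ± 0.07 (adjusted p = 0.128). The gene wapl, whose product releases cohesin from chromosomes, read 10.41 and 10.48 in LID RNAi discs, against 10.79 and 10.76 in GFP RNAi discs and 10.95 and 11.05 in wild type discs. It fell by 0.56 ± 0.08 against wild type (adjusted p = 0.0438), with a difference of -0.33 from GFP RNAi (adjusted p = 0.206).

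Cap-D3, a subunit of condensin II, read 4.42 and 4.24 in LID RNAi discs, against 4.80 and 4.74 in GFP RNAi discs and 5.10 and 4.96 in wild type discs. Cap-D3 fell, with a difference of -0.70 ± 0.10 from wild type (adjusted p = 0.0479), between readings at or near background: the means were 4.33 in LID RNAi and 4.77 in GFP RNAi, both within the limit of 4.82, and 5.03 in wild type, little above it. The calls of Nuf2, wapl and Cap-D3 against wild type ended without any 1 of the 6 arrays, with differences from 0.54 to 0.63 for Nuf2, -0.61 to -0.51 for wapl and -0.79 to -0.62 for Cap-D3 and adjusted p between 0.0610 and 0.228. With a replicate block they ended too (adjusted p = 0.0714, 0.0825 and 0.0572). That of Nuf2 against both controls also ended without any 1 array (0.0873 to 0.167) and with a block (0.0924).

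**Figure D4:**
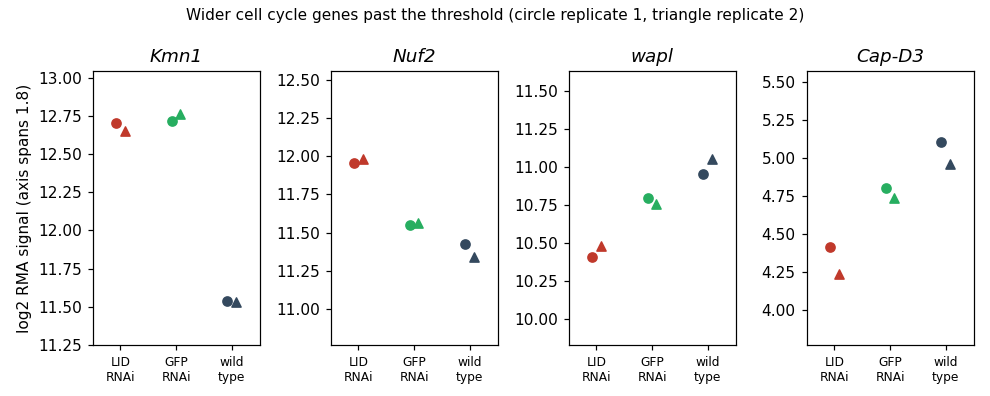
Log2 signal on each array of the 4 genes of the wider lists past the threshold in a comparison (LID RNAi red, GFP RNAi green, wild type dark blue; circle replicate 1, triangle replicate 2). Each vertical axis spans the same distance around the gene's own values. Kmn1 is level in both RNAi groups, near 12.7, and lower in wild type, near 11.5, while Nuf2, wapl and Cap-D3 are ordered with GFP RNAi between LID RNAi and wild type.

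In the 7 lists without a call the gene farthest from GFP RNAi is given. Counts above 0 stand beside 52.1% of all probe sets in that comparison. For initiation and the helicase (12 genes, median difference from GFP RNAi 0.05) it was Cdc6, which helps to load MCM, at 0.25 ± 0.11 (SE, adjusted p = 0.490). Among polymerases, clamp loader and ligation (25 genes, median 0.08, 18 above 0) it was PolE2, a subunit of polymerase epsilon, at 0.38 ± 0.11 (adjusted p = 0.271). In that list LID RNAi replicate 2 exceeded replicate 1 in 24 of 25 genes, beside 44.0% of all probe sets.

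For the E2F, Rbf and Myb complex (9 genes, median 0.05) it was mip40, a subunit of the complex that joins E2F and Myb, which read 12.12 and 12.22 in LID RNAi discs, against 11.76 and 11.74 in GFP RNAi discs and 11.82 and 11.74 in wild type discs. Both LID RNAi arrays of mip40 lay above all controls, by 0.42 ± 0.08 (SE, adjusted p = 0.144) against GFP RNAi and 0.39 ± 0.08 (adjusted p = 0.0956) against wild type. Among CDK regulators and ubiquitin ligases (16 genes, median 0.03) it was CycK, a cyclin of a transcription kinase, at 0.25 ± 0.09 (adjusted p = 0.388), where wild type was the highest group. For the anaphase promoting complex (10 genes, median 0.06, 9 above 0) it was Cdc23 at 0.25 ± 0.08 (adjusted p = 0.311).

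For spindle and cytokinesis (24 genes, median 0.00) it was the centriole gene Sas-6 at 0.25 ± 0.12 (adjusted p = 0.503). For the DNA damage checkpoint (15 genes, median -0.02) it was tefu, the fly ATM kinase, which read 10.66 and 10.38 in LID RNAi discs, against 11.02 and 11.07 in GFP RNAi discs and 11.17 and 11.17 in wild type discs. Both LID RNAi arrays of tefu were below all controls, at -0.52 ± 0.11 (SE, adjusted p = 0.190) against GFP RNAi and -0.65 ± 0.11 (adjusted p = 0.0743) against wild type. In the lists with a call, cohesin and condensin (15 genes) had a median of -0.04 against GFP RNAi and -0.01 against wild type, where wapl and Cap-D3 fell. Kinetochore and spindle checkpoint genes (17) had medians of 0.02 and 0.11, where Kmn1 and Nuf2 rose. Against GFP RNAi 9 of these genes lay above 0 and 8 below. Farthest from GFP RNAi was Mis12, which was lower and did not pass, at -0.46 ± 0.08 (SE, adjusted p = 0.122). Its difference from wild type was -0.44 ± 0.08 (adjusted p = 0.0718).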

How the data were processed

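Signals of 6 arrays were analysed. The deposited values are log2 signals per probe set made with RMA by the authors, per the submitters' processing notes; its version and chip definition are not given in the sources used here. RMA scales arrays to a common distribution, so a change shared by all genes cannot be seen. Of 18952 probe sets, 183 manufacturer's controls were left out and 18769 tested. The probe table (an annotation of the array) pairs 1 symbol with 13646 of these, several with 402 and none with 4721. A gene was represented by its probe set of highest mean. Probe sets ending in _s_at (Kdm5, CycD, Cdk4, CycE, Cdk2 and CycK, among others) may match further transcripts.

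One mean per group was estimated from the 6 arrays together by limma (version 3.58.1, under R version 4.3.3) (3 residual and 1.77 prior degrees of freedom), with Benjamini-Hochberg adjustment over all probe sets, a threshold of 0.05 and two-sided tests. Figures were drawn with matplotlib 3.10.9. Differences are in log2, with n = 2 arrays per group, and their number limits the precision. The fit was also run on simulated data, and the outcome is not reported here. The simulated noise was independent between probe sets and arrays, so that run does not cover an effect shared across an array.

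Members and lists were chosen with earlier results of these data known. Values on every array were due, by rule, for members past the threshold, for pim (unadjusted p under 0.05 with groups apart) and for the largest difference from GFP RNAi per role group (Mcm3, PCNA, Rbf, aurB, sub). The other members' array values were added after they were seen. Of the wider lists, genes past the threshold are named, otherwise the largest difference from GFP RNAi. Background is the 95% point of Bacillus subtilis probe sets, chosen with the data known. Replicate numbers were not used to pair the arrays in the main fit. The alternatives for the medians over the members and over the MCM genes, and for Kdm5, Kmn1, Nuf2, wapl and Cap-D3, were chosen after seeing the data.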

Additional observations from a re-analysis of the deposited data

Results flagged for a closer look

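A control probe set outside the comparisons, AFFX-Dm-K01486-1_at, averaged 11.74 in log2 over the 4 RNAi arrays, against 3.07 and 2.96, within background, on the wild type arrays.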

How the results depend on the processing

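No gene of the 26 passed the threshold under any alternative in any comparison (limma, 0 throughout). Quantile normalization, leaving out dim probe sets, fitting only the 2 groups compared, a replicate block, an intensity trend and leaving out each array were tried, with sub not tested among dim probe sets. Counts over all probe sets moved more. LID RNAi against GFP RNAi called 88, against 154 without dim probe sets, 3 with only the 2 groups, 12 with the replicate block, 247 with the trend and 0 to 6 without 1 array. The 0 came without LID RNAi replicate 2, GFP RNAi replicate 1 or GFP RNAi replicate 2, with 2197, 1773 and 1644 at an unadjusted p under 0.05. LID RNAi against wild type called 439, against 99 with only the 2 groups, 200 with the block, 784 with the trend and 24 to 324 without 1 array. GFP RNAi against wild type called 162, against 90, 41, 325 and 4 to 90 under the same settings. LID RNAi against both controls called 268, against 463 without dim probe sets, 41 with the block, 613 with the trend and 5 to 81 without 1 array.

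Leaving out 1 array turned the sign of 4 differences of single genes: PCNA (-0.000245 to 0.0575) and aurB (-0.0408 to 0.167) in LID RNAi against wild type, and Mcm3 (-0.0968 to 0.0999) and sub (-0.0477 to 0.385) in GFP RNAi against wild type. It also turned the median over the 26 in GFP RNAi against wild type (-0.0194 to 0.0275). The call of wapl ended under quantile normalization (adjusted p = 0.0508) and with only the 2 groups (0.122), that of Nuf2 against wild type with only the 2 groups (0.106), that of Cap-D3 under these and the trend (0.0550, 0.126 and 0.0559), and that of Kdm5 against GFP RNAi with only the 2 groups (0.131). The causes were not tested.

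Replicate numbers are shared between groups with no stated pairing. Replicate differences correlated at 0.298 between LID RNAi and GFP RNAi, 0.223 between LID RNAi and wild type and 0.0646 between GFP RNAi and wild type. Because no pairing is stated, the numbers were not taken as pairs in the main fit, and the replicate block is given as an alternative. With 2 arrays per group, small differences in these genes cannot be resolved.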
